A study of Homo sapiens with 12 samples.

Results

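The genes described here encode the enzymes that place N6-methyladenosine (m6A) on RNA, with the adaptor proteins of their complex. They were taken by name from the deposited gene table: METTL3, METTL14, WTAP, VIRMA, ZC3H13, CBLL1, RBM15, RBM15B, METTL16 and PCIF1. All 10 were found among the 29696 genes of the table, and all 10 were among the 12985 genes tested. The rule that picks them uses their names and no measured value, though the list was drawn up with earlier results of these data known.

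The study compared A375 cells, a human melanoma line, infected with a lentivirus carrying a short hairpin RNA against ALKBH5 (shALKBH5, labelled ALKBH5 knockdown) with A375 cells carrying a control hairpin (shCtrl, labelled wild type). ALKBH5 is an enzyme that removes m6A. Each group had 3 input libraries, made from fragmented poly(A) RNA, and 3 immunoprecipitation (IP) libraries, made from the fragments that an antibody against m6A pulled down. Both groups were maintained in the same medium, and the hairpin used for the sequenced cells is not named in the sources used here. The labels do not say that the libraries came from separate cultures, and the study's methods state independent repeats for its experiments in general without naming these libraries, so p-values measure only the spread between these libraries, which may be technical.

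Most m6A in mRNA is placed during transcription by a complex. METTL3 carries the catalytic site, METTL14 forms a heterodimer with it and helps to hold the RNA, WTAP anchors the pair in nuclear speckles, VIRMA (also called KIAA1429) is the scaffold of the associated proteins, and ZC3H13, CBLL1 (also called HAKAI) and the RNA-binding paralogs RBM15 and RBM15B complete it. METTL16 and PCIF1 work alone. METTL16 methylates U6 snRNA and hairpins in MAT2A mRNA, and PCIF1 methylates the adenosine next to the mRNA cap when it is already methylated on its ribose.

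The sequences around the annotated start sites are shown for the 3 genes whose RNA level passed the test and for RBM15B, which shares a word with a pair of them. They are RefSeq sequences on GRCh38.p14, read 5′ to 3′ on the gene's strand, each with 10 bases before the start and 30 bases from it. Capitals mark the word AAGATGGC, the core of a motif known for the factor YY1, which was chosen after these sequences were seen.
METTL3 (chr14:21511311-21511350, minus strand): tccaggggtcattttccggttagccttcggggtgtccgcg
METTL16 (chr17:2511859-2511898, minus strand): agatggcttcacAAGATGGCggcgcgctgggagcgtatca
PCIF1 (chr20:45934673-45934712, plus strand): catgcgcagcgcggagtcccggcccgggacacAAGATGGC
RBM15B (chr3:51391275-51391314, plus strand): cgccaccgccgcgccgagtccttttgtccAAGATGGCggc

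RefSeq start-site sequence was matched for 9 of the 10 genes. The word AAGATGGC, searched on both strands in windows of 250 bases before and 50 bases after the start, was found in 3 of them, METTL16, PCIF1 and RBM15B, and in 962 of the 27305 genes with such a window. Counted by window, since a gene can have several, it was in 30.0% of the 10 windows of these genes and in 2.89% of all 35116 windows. In those 3 genes it lay within the first 30 transcribed bases, on the gene's own strand and beginning at base 3 of METTL16, base 23 of PCIF1 and base 20 of RBM15B. Of all windows, 0.86% (298 genes) held it within these bases on that strand. Since the word was chosen after these sequences were seen, the shares are no test of it. RNA of the first gene was higher, that of the second lower and that of the third not called in shALKBH5 cells, as given below. A match is a description of the letters in this window.

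Expression was read in the input libraries as FPKM, a count of fragments divided by transcript length and by the size of the library. No read counts were used here, and sequencing depth is therefore unknown. ALKBH5, the targeted gene, lay between 3.12 and 3.92 FPKM in the shALKBH5 libraries and between 17.6 and 19.3 FPKM in the shCtrl libraries, so the knockdown was seen in each library (Benjamini-Hochberg adjusted p = 1.276e-06, limma). Across genes, log2 values correlated at r = 0.981 to 0.984 within groups and at 0.929 to 0.934 between groups. Of 7 markers of the melanocyte lineage 6 were listed, and 3 averaged at least 1 FPKM over the 6 input libraries (SOX10, S100B and MITF). MITF averaged 1.26 FPKM in shALKBH5 and 0.777 in shCtrl. Of the pigment genes, TYR and DCT were near 0, and PMEL averaged 0.611 FPKM in shALKBH5 and 0.237 in shCtrl. Of 3 keratinocyte markers only KRT14 was listed, and it reached at most 1.07 FPKM. The 3 fibroblast markers summed to at most 1.11 FPKM, and none of 3 leukocyte markers was listed. The summed melanocyte markers lay at 262 to 267 FPKM in shALKBH5 and at 214 to 224 FPKM in shCtrl libraries. S100B carried this difference (means of 82.1 and 32.9 FPKM), while SOX10 averaged 180.5 and 184.2 FPKM, and their part in the results was not tested.

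In A375 cells the RNA of these genes stood at unequal levels. In shCtrl cells, PCIF1, which is not part of the complex, was highest with a mean of 14.8 FPKM, followed by RBM15B, the highest of the complex, with 13.5, METTL3 with 7.64, CBLL1 with 6.09, METTL16 with 5.42, WTAP with 4.95, RBM15 with 3.50, VIRMA with 3.45, ZC3H13 with 2.18 and METTL14 with 0.761 FPKM. Neighbours in this order whose library ranges overlapped were CBLL1 with METTL16, METTL16 with WTAP, and RBM15 with VIRMA. By mean level, METTL14 was at percentile 9.86 of all tested genes and RBM15B at percentile 78.3. In shALKBH5 cells, RBM15B stood first with 13.8 FPKM and PCIF1 second with 10.6, METTL16 (7.45) stood above CBLL1 (5.32), and METTL14 was again last with 0.791 FPKM. There, RBM15 and VIRMA were the only neighbours in the order whose ranges overlapped.

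**Figure D1:**
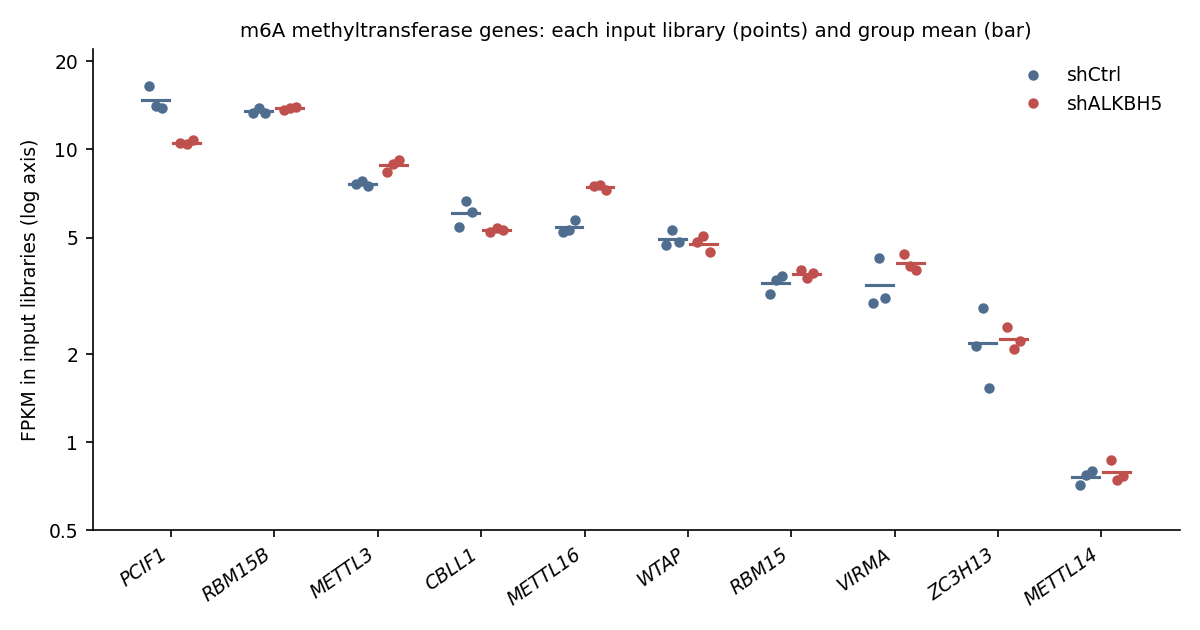
FPKM of each gene (log axis) in every input library, with genes ordered by their mean in shCtrl cells. Points are libraries, 3 per group in the order of their numbers, and bars are group means. The groups lie apart for PCIF1 and CBLL1, which are lower, and for METTL3 and METTL16, which are higher in shALKBH5, and METTL14 lies below 1 FPKM in all 6 libraries.

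Knockdown of ALKBH5 was accompanied by higher METTL16 and METTL3 RNA and by lower PCIF1 RNA. These 3 of the 10 genes passed an adjusted p of 0.05, 2 higher and 1 lower in shALKBH5, while 34.7% of all tested genes were called higher and 26.2% lower. After rescaling of the libraries by their median ratio the balance turned, with 1 of the 10 genes higher and 2 lower, and with 3756 of all tested genes higher and 3919 lower in place of 4509 and 3408. The groups did not overlap for 2 genes that were higher and for 2 that were lower, and for 38.0% and 29.0% of all tested genes. The median of the absolute log2 fold change was 0.15 over the 10 genes and 0.36 over all tested genes. Fold changes are on the scale of log2(FPKM + 0.1), which understates the change of genes with low values, and standard errors and 95% intervals come from limma with 3 libraries per group. In a bulk sample, fewer cells that express a gene and less RNA per cell cannot be told apart.

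METTL3 (ENSG00000165819, chromosome 14, 21498133 to 21511342, minus strand) was measured at 8.40, 8.90 and 9.24 FPKM in shALKBH5 replicates 1 to 3 and at 7.63, 7.79 and 7.50 FPKM in shCtrl replicates 1 to 3. Each shALKBH5 library lay above each shCtrl library. The log2 fold change was 0.21 (standard error 0.0541, interval 0.08 to 0.34, adjusted p = 0.01233 from limma), but 69.4% of tested genes had a larger absolute change. The call was lost without shALKBH5 replicate 3 (0.18, adjusted p = 0.05092) and after rescaling of the libraries by their median ratio (0.13, adjusted p = 0.1014), with the direction kept. TOX4, on the opposite strand, overlaps the span of METTL3 by 1043 bp and averaged 12.3 FPKM in shALKBH5 and 8.92 in shCtrl, and whether the counting used strand is not given in the sources used here.

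METTL14 (ENSG00000145388, chromosome 4, 118685392 to 118715433, plus strand) was measured at 0.866, 0.742 and 0.764 FPKM in shALKBH5 and at 0.715, 0.773 and 0.795 FPKM in shCtrl cells. The groups overlapped, and the log2 fold change was 0.05 (interval -0.26 to 0.35, adjusted p = 0.7741 from limma), with the sign turned without shALKBH5 replicate 1 (-0.0130) and after rescaling (-0.0229). The ratio of METTL3 to METTL14, 2 genes whose proteins pair, was 9.70, 12.0 and 12.1 in shALKBH5 and 10.7, 10.1 and 9.44 in shCtrl libraries, as a ratio of FPKM. The groups overlapped here too, with a difference of 0.16 in the log2 ratio (p = 0.3 by a two-sided exact permutation test, which cannot fall below 0.1 with 3 libraries against 3), and the difference ranged from 0.11 without shALKBH5 replicate 3 to 0.26 without shALKBH5 replicate 1. With a pseudocount of 1 in place of 0.1 the groups did not overlap (p = 0.1, the smallest this exact test can give). The RNA of the catalytic subunit was therefore about 10 times that of its partner per length in both groups (means of 11.3 ± 1.36 and 10.1 ± 0.614, SD, n = 3).

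Of the scaffold proteins, WTAP (ENSG00000146457, chromosome 6, 159725585 to 159756319, plus strand) was measured at 4.82, 5.04 and 4.46 FPKM in shALKBH5 and at 4.71, 5.31 and 4.83 FPKM in shCtrl cells. The groups overlapped, with a log2 fold change of -0.05 (interval -0.23 to 0.12, adjusted p = 0.5751 from limma) that ranged over the alternatives from -0.13 after rescaling to -0.00129 without shCtrl replicate 2. Its whole span of 30735 bp lies opposite SOD2, which averaged 0.853 FPKM in shALKBH5 and 1.13 in shCtrl. VIRMA (ENSG00000164944, chromosome 8, 94487689 to 94553529, minus strand) was measured at 4.39, 4.01 and 3.87 FPKM in shALKBH5 and at 3.00, 4.25 and 3.11 FPKM in shCtrl cells. The second shCtrl library lay among the shALKBH5 libraries and the others below them. The log2 fold change was 0.25 (interval -0.06 to 0.57, adjusted p = 0.1397 from limma), and without shCtrl replicate 2 it was 0.41 and called (adjusted p = 0.00481), while without shCtrl replicate 1 it was 0.16 (adjusted p = 0.3497).

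ZC3H13 (ENSG00000123200, chromosome 13, 45954465 to 46052759, minus strand), a zinc finger protein that helps to keep the complex in the nucleus, was measured at 2.47, 2.08 and 2.21 FPKM in shALKBH5 and at 2.14, 2.88 and 1.53 FPKM in shCtrl cells. The shCtrl libraries lay on both sides of the shALKBH5 libraries. The log2 fold change of 0.08 had the widest interval of the 10 genes (-0.40 to 0.57, adjusted p = 0.7417 from limma), and it was -0.14 without shCtrl replicate 3. CBLL1 (ENSG00000105879, chromosome 7, 107743949 to 107761667, plus strand), a RING finger protein with E3 ubiquitin ligase activity, was measured at 5.24, 5.40 and 5.33 FPKM in shALKBH5 and at 5.44, 6.69 and 6.14 FPKM in shCtrl cells. The groups did not overlap, but the gap was small, and the log2 fold change of -0.19 was not called (interval -0.37 to 0.00, adjusted p = 0.08003 from limma). It was called without shCtrl replicate 1 (-0.26, adjusted p = 0.0104) and after rescaling of the libraries (-0.26, adjusted p = 0.01533), and it was smaller without shCtrl replicate 2 (-0.12, adjusted p = 0.1966).

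The RNA-binding paralogs, which bring the complex to its targets, did not pass the test. RBM15 (ENSG00000162775, chromosome 1, 110338506 to 110346681, plus strand) was measured at 3.88, 3.64 and 3.78 FPKM in shALKBH5 and at 3.22, 3.58 and 3.69 FPKM in shCtrl cells (log2 fold change 0.11, interval -0.07 to 0.28, adjusted p = 0.2454 from limma), and its log2 fold change was 0.05 without shCtrl replicate 1 and 0.03 after rescaling. RBM15B (ENSG00000259956, chromosome 3, 51391285 to 51397908, plus strand) was measured at 13.6, 13.8 and 14.0 FPKM in shALKBH5 and at 13.4, 13.9 and 13.3 FPKM in shCtrl cells, a spread so small that the interval of its log2 fold change of 0.03 was the narrowest of the 10 (-0.07 to 0.13, adjusted p = 0.5462 from limma). RBM15B is overlapped by DCAF1 on the opposite strand over 2042 bp, at 9.52 FPKM in shALKBH5 and 9.31 in shCtrl. Per length, RBM15 was at 0.285, 0.263 and 0.271 of the FPKM of RBM15B in shALKBH5 and at 0.241, 0.258 and 0.277 in shCtrl libraries. The ratios overlapped between groups (difference of 0.08 in the log2 ratio, p = 0.4 by the same exact test), and the difference ranged from 0.03 without shCtrl replicate 1 to 0.12 without shCtrl replicate 3.

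The genes outside the complex had the largest absolute fold changes of the 10. METTL16 (ENSG00000127804, chromosome 17, 2405562 to 2511891, minus strand) was measured at 7.52, 7.56 and 7.25 FPKM in shALKBH5 and at 5.22, 5.30 and 5.75 FPKM in shCtrl cells. All shALKBH5 libraries lay above all shCtrl libraries, by a log2 fold change of 0.45 (standard error 0.0585, interval 0.32 to 0.59, adjusted p = 0.000407 from limma), or 1.37-fold between the group means. PCIF1 (ENSG00000100982, chromosome 20, 45934683 to 45948023, plus strand) was measured at 10.5, 10.4 and 10.8 FPKM in shALKBH5 and at 16.4, 14.1 and 13.9 FPKM in shCtrl cells. The shALKBH5 libraries lay below the shCtrl libraries without overlap, by a log2 fold change of -0.48 (standard error 0.0704, interval -0.64 to -0.31, adjusted p = 0.0007746 from limma), or 0.713 times the shCtrl mean. Both calls were made in all 13 alternative settings. Among all tested genes these changes were of middling size, since 40.7% had a larger absolute change than METTL16 and 38.2% a larger one than PCIF1.

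**Figure D2:**
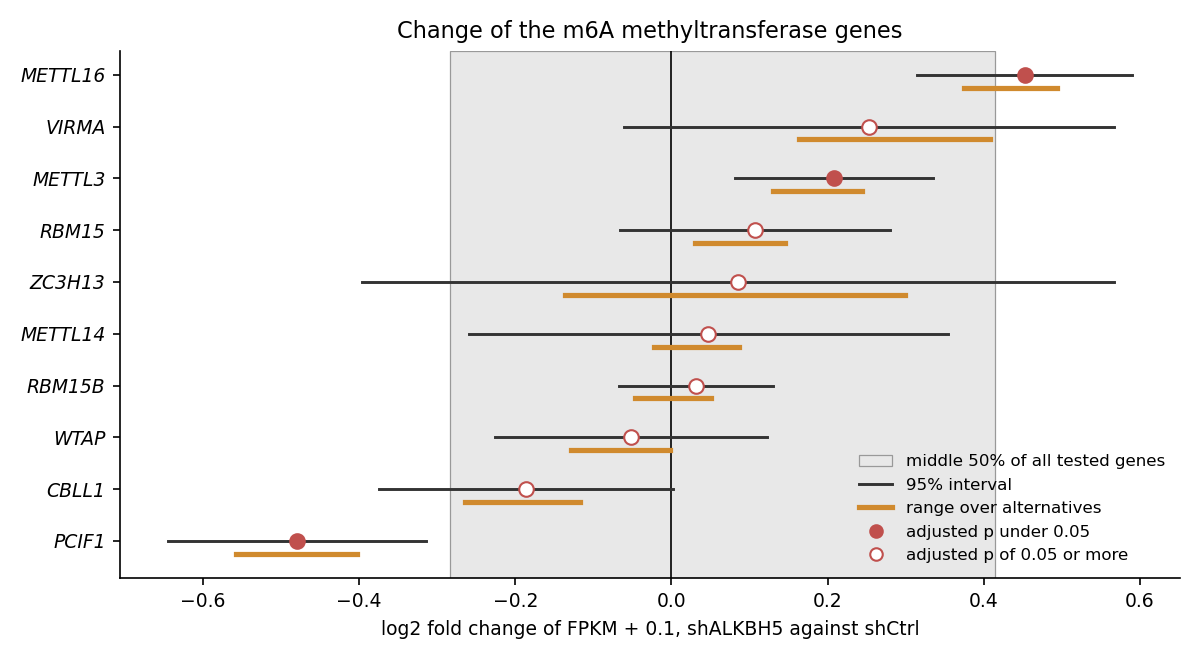
Log2 fold change of FPKM + 0.1 in shALKBH5 against shCtrl cells, with 95% intervals from limma (black) and the range over the alternative settings (orange). The shaded band holds the middle 50% of all tested genes (-0.28 to 0.41). METTL16 and PCIF1 lie outside the band on opposite sides, and filled points mark the 3 genes with an adjusted p under 0.05.

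The other genes of the m6A pathway, were taken as a list of 19. Of 18 that could be tested 5 were called higher, 4 lower and 9 were not called, which lies near the shares of all tested genes (34.7% higher and 26.2% lower), and METTL4 was below the filter on low values. The 4 lower genes include ALKBH5, the target of the hairpin, whose fall is set by the design. FTO, the other m6A demethylase, was measured at 2.48, 2.46 and 2.36 FPKM in shALKBH5 and at 1.55, 1.63 and 1.57 FPKM in shCtrl cells. FTO libraries of the groups did not overlap, with a log2 fold change of 0.59 (interval 0.41 to 0.77, adjusted p = 0.0004007 from limma). Of 10 readers, which bind methylated RNA, 3 were higher, 3 lower and 4 not called, again near the 34.7% and 26.2% of all tested genes. IGF2BP3, a reader that stabilises its targets, was measured at 4.17, 3.34 and 3.59 FPKM in shALKBH5 and at 6.68, 8.78 and 6.48 FPKM in shCtrl cells, and fell by 0.96 on the log2 scale (adjusted p = 0.0005704 from limma). MAT2A, which makes the methyl donor S-adenosylmethionine and whose mRNA is a substrate of METTL16, was measured at 61.4, 64.2 and 62.5 FPKM in shALKBH5 and at 64.9, 62.7 and 66.1 FPKM in shCtrl cells. The MAT2A libraries overlapped, with a log2 fold change of -0.04 (interval -0.13 to 0.05, adjusted p = 0.3751 from limma). Of the 3 genes for rRNA methylation (METTL5, TRMT112 and ZCCHC4) none was called. The groups did not overlap for 2 of them, METTL5 (adjusted p = 0.06456 from limma) and TRMT112 (adjusted p = 0.06312 from limma), both higher in shALKBH5. Among all tested genes, 38.0% were higher in shALKBH5 without overlap of the groups.

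The transcripts of these enzymes were themselves enriched by the m6A antibody. In MeRIP-Seq a peak is a stretch where IP fragments exceed input fragments, and the fold enrichment is that excess as a ratio. The deposited lists hold 1 set of peaks per group, so peak values have no replicate check and no test was made. All 10 genes had a peak in both lists, as did 86.0% (shALKBH5) and 85.5% (shCtrl) of tested genes, with 1 to 5 peaks per gene in shALKBH5 and 2 to 5 in shCtrl. There were 31 peaks in shALKBH5 and 32 in shCtrl cells. By the deposited annotation, 17 of the 31 (54.8%, 95% Wilson interval 37.8 to 70.8) and 16 of the 32 (50.0%, interval 33.6 to 66.4) lay in the 3′UTR, beside 45.5% and 46.2% of all listed peaks. Intervals cover counting error only, and peaks of a gene are not independent. In each list, 9 of the peaks spanned over 5000 bp. A listed span may run across introns, which was not checked against exon positions. A peak of the other list overlapped 28 of the 31 and 29 of the 32 peaks (90.3% and 90.6%), beside 78.1% and 81.3% in the whole lists. The peaks of the 10 genes were longer, with median spans of 1334 bp (shALKBH5) and 1504 bp (shCtrl), beside 570 and 571 bp in the whole lists. Longer spans overlap more easily, and the shares were not adjusted for length.

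**Figure D3:**
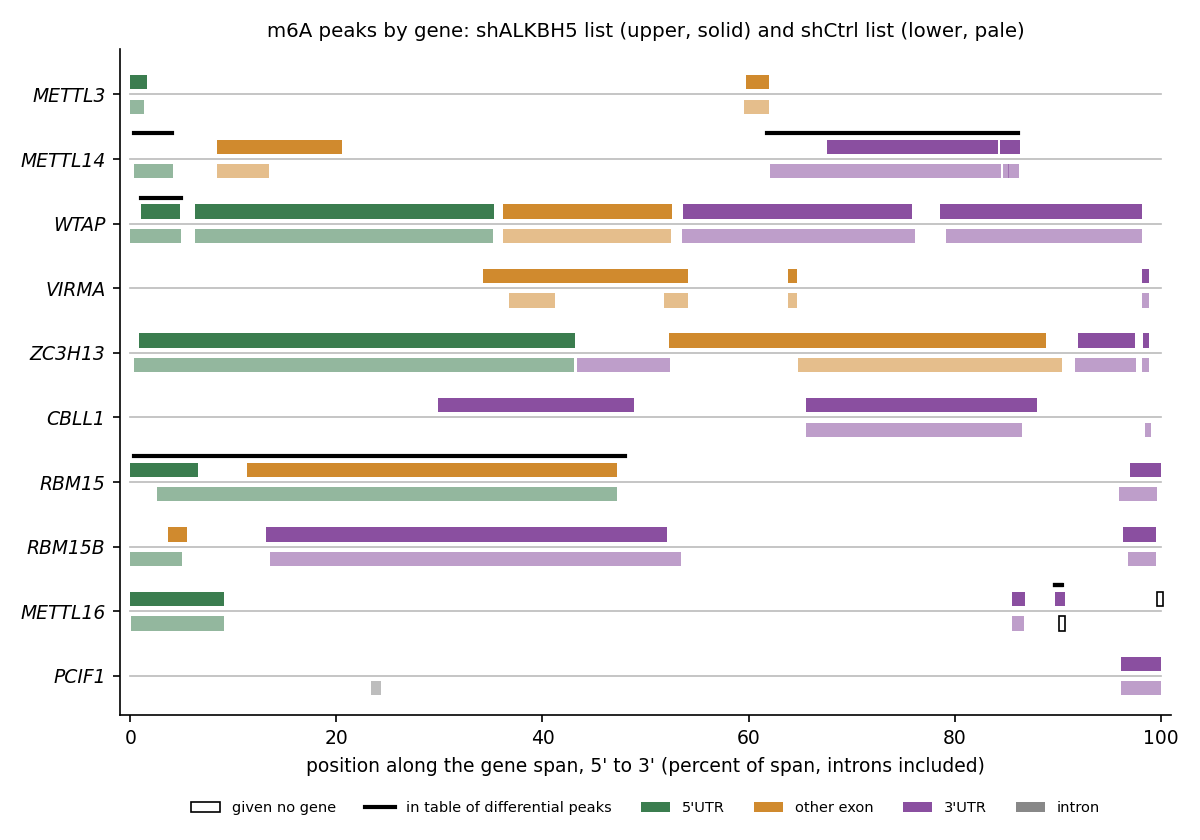
Peaks of each gene along its span from 5′ to 3′ (percent of the span, introns included), with the shALKBH5 list above the line and the shCtrl list below it, coloured by the deposited annotation. Black lines mark regions in the deposited table of differential peaks, open boxes are peaks given no gene, and narrow peaks are widened to be visible. Most peaks have a counterpart in the other list, and the 3 coloured peaks of METTL16 near 90% of its span overlap as drawn.

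The highest fold enrichment lay at the 5′ end of RBM15. There the shALKBH5 list gave 2 peaks, with fold enrichments of 38.0 (chromosome 1, 110338506 to 110339045, 5′UTR) and 12.4 (110339434 to 110342367, exonic), where the shCtrl list gave 1 peak of 23.0 over 110338716 to 110342367. The peak of 38.0 was the less well supported of the 2 in shALKBH5 (log10 FDR -8.7 against -280). In ZC3H13 a shALKBH5 exonic peak of 11.8 overlapped 2 shCtrl peaks, an exonic peak of 11.5 and a peak of 16.6 annotated as 3′UTR (chromosome 13, 46001297 to 46010177). That peak of 16.6 lay at 43.3 to 52.4% of the gene span. It was less well supported (log10 FDR -6.43) than the exonic peaks of 11.8 and 11.5 (-182 and -185). METTL16 had a 3′UTR peak with fold enrichments of 9.14 and 8.64, and PCIF1 had a 3′UTR peak of 508 bp at the same place in both lists (chromosome 20, 45947516 to 45948023) with 8.72 and 9.42. By each gene's highest peak, METTL3 was the weakest of the called genes, with 2.42 and 2.70 at its 5′UTR and 1.75 in both lists at an exonic peak, and it had no peak in the 3′UTR.

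Peaks that paired 1 to 1 between the lists numbered 22, and 8 had the higher fold enrichment in shALKBH5 (36.4%), 13 the lower and 1 was equal. Of all 23026 such pairs 10548 were higher (45.8%) and 12351 lower. The median ratio of shALKBH5 to shCtrl was 0.928 (range 0.595 to 1.72), beside 0.970 for the pairs of all genes. At least 1.5-fold higher in shALKBH5 was 1 pair, in the 3′UTR of VIRMA (8.57 against 4.98), beside 14.5% of all pairs. At least 1.5-fold lower were 2 pairs, beside 15.5% of all pairs. These were the 5′UTR of WTAP (10.3 against 17.3, chromosome 6, from 159725885 in shALKBH5 and from 159725585 in shCtrl) and the 5′ end of RBM15B (1.91 against 2.87, over 121 and 331 bp). The remaining 19 pairs lay within 1.5-fold of each other.

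**Figure D4:**
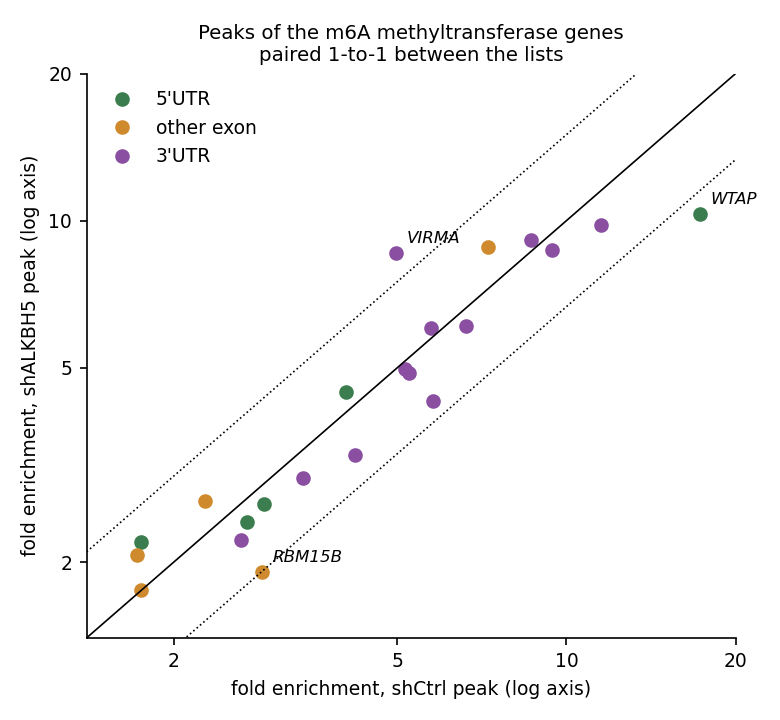
Fold enrichment of IP over input in the shALKBH5 list against the shCtrl list for the 22 peaks paired 1 to 1 (both axes log). Each point is a peak, the solid line marks equal values and the dotted lines a 1.5-fold difference. The 3 named peaks lie beyond or on the dotted lines.

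Peaks without a counterpart were few, with 3 in each list. METTL14 had a 5′UTR peak in the shCtrl list alone (chromosome 4, 118685482 to 118686641, fold enrichment 2.39), and its 3′UTR held fold enrichments of 7.81, 3.32 and 4.68 in shCtrl and of 4.81 and 3.86 in shALKBH5. PCIF1 had an intronic peak of 121 bp in shCtrl alone (3.13), and CBLL1 had 1 weak 3′UTR peak of its own in each list (2.45 in shALKBH5 and 2.84 in shCtrl). METTL16 had 2 nearly identical 3′UTR peaks in shALKBH5 alone (chromosome 17, 2416195 to 2416428 and 2416199 to 2416409) with low fold enrichments of 1.60 and 1.64 (log10 FDR -5.96 and -5.74). Beside them, a less well supported shALKBH5 peak at 2415788 to 2416085 (fold enrichment 9.80, log10 FDR -1.12) overlapped a shCtrl peak at 2415491 to 2416026 (11.5, log10 FDR -1.48) that the deposited list annotated as downstream and gave no gene. A list call in 1 group and not in the other was not tested as a difference.

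Of the 10 genes 4 had a region in the deposited table of differential peaks, which lists 32.7% of all tested genes, and the values of that table were not used. The 6 regions were 2 in METTL14 (5′UTR and 3′UTR), 1 in the 5′UTR of WTAP, 1 at the 5′ end of RBM15 and 2 in the 3′UTR of METTL16. The METTL14 region at chromosome 4, 118685482 to 118686611 overlapped a peak of the shCtrl list alone, and both METTL16 regions (chromosome 17, 2416107 to 2416428 and 2416109 to 2416409) overlapped peaks of METTL16 in the shALKBH5 list alone. No region was listed for METTL3 or PCIF1, whose RNA levels were called, nor for VIRMA, ZC3H13, CBLL1 and RBM15B.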

How the data were processed

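Expression came from the input libraries, which the authors deposited as FPKM per library. The study's methods name an R package for count data for quantifying and testing transcripts, and the aligner, the tool that counted reads, the peak caller and the pooling of replicates are not given in the sources used here. The submitters' processing notes name mm10, a mouse build, but 99.9% of the genes matched by symbol overlap their GRCh38.p14 positions in RefSeq, so coordinates are given as GRCh38. For each group the authors deposited 1 peak list, with the fold enrichment of IP over input as a ratio, and with a log10 p-value and FDR per peak, treated as a score. Peak starts, which are 0-based in the files, were converted to 1-based positions. Deposited columns of the authors' comparisons (fold changes, p-values, FDR and calls of genes and of differential peaks) were not used, apart from positions and annotation of the differential peaks.

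Genes averaging 0.5 FPKM or more over the 6 input libraries were tested two-sided by limma 3.58.1 in R 4.3.3 (lmFit, then eBayes with a trend) on log2(FPKM + 0.1), with Benjamini-Hochberg adjustment over all of them. Count models were not used, since low FPKM values showed no steps from which whole reads could be recovered, and no 2 libraries shared more than 0.123% of values. The test was checked on simulated data. Ratios used the exact permutation test. Peaks on the same strand that shared at least 1 bp were called overlapping (bedtools 2.31.1), and paired where each overlapped 1 peak of the other list. Tables and plots were made with pandas 2.3.3, scipy 1.17.1, matplotlib 3.10.9 and numpy 2.4.6 under Python 3.11.15. All 10 genes, ALKBH5, FTO and MAT2A were named by rule, and of the 19 pathway genes those with an adjusted p under 0.05 and an absolute log2 fold change of at least 0.8. Genes, lists and markers were chosen with earlier results of these data known. Single IP libraries were not analysed here.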

Additional observations from a re-analysis of the deposited data

How the results depend on the processing

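Of 129 values of the 10 genes under the alternatives, 120 kept their direction and their side of the threshold, 4 changed sign, 3 gained and 2 lost a call. The 10 genes called numbered 3 in each setting other than leaving out libraries, where they ranged from 2 to 4, and genes called over the whole table from 6874 to 7833. Without a filter on low values 8231 genes were called. Rescaling of the libraries turned METTL14 to -0.0229 and RBM15B to -0.0471, lowered the median over all genes from 0.09 to 0.01 and replaced METTL3 by CBLL1 among the called genes. With each library left out in turn, METTL14 ranged from -0.0130 (without shALKBH5 replicate 1) to 0.0868 and ZC3H13 from -0.137 (without shCtrl replicate 3) to 0.299. METTL14, WTAP, ZC3H13, RBM15 and RBM15B were called in none of the settings, and the cause of the changes was not tested. METTL14 has no value under the filter at 1 FPKM. A reciprocal overlap of 50% lowered the share of peaks shared with the other list to 71.0% (shALKBH5) and 68.8% (shCtrl), beside 51.6% and 53.7% in the whole lists, since it is the stricter rule, and stricter peaks (fold enrichment of at least 2, FDR of at most 0.01) left 24 and 27 peaks in all 10 genes.

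Same-numbered libraries did not deviate together (r = 0.02, -0.05 and 0.06 across genes). This cannot tell whether they were prepared together, which the labels do not say. With the replicate number as a block 7271 genes were called, and of the 10 genes METTL3, METTL16 and PCIF1, as without it. FPKM without counts leaves the depth unknown, and 3 libraries per group limit the precision.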
